A study of Mus musculus with 6 samples.

Results

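The regenerating (Reg) genes encode small secreted C-type lectins, and Retnlb encodes resistin-like molecule beta, a cysteine-rich protein that goblet cells release into the gut lumen. The 6 genes described here, Reg1, Reg3a, Reg3b, Reg3g, Reg4 and Retnlb, were chosen by name from the 24736 gene symbols with a level in intestinal crypts of WT and Mtg16-/- mice. All 6 were listed, and all 6 passed the filter of a mean TPM (transcripts per 1000000) of 1 or more over the libraries. Retnlb passed that filter through its WT values, since its mean in Mtg16-/- crypts lay below 1 TPM. The highest of those WT values was 8.7 TPM in WT replicate 3.

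Total RNA was sequenced in biological triplicate per genotype, all from males aged 12 weeks, so 3 libraries were WT and 3 Mtg16-/-. Each library is treated below as 1 mouse. Crypts were released from the whole length of the gut with 2 mM EDTA in cold PBS for 30 minutes. MTG16, encoded by Cbfa2t3, is a transcriptional co-repressor that recruits histone-modifying enzymes. The labels call the knockout CRISPR induced, whereas the paper describes a donated Mtg16-/- line, and a constitutive knockout removes the gene from blood and stromal cells as well as from the epithelium.

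REG3 lectins are known as a front line of innate defense in the small intestine. REG3G binds the peptidoglycan of Gram-positive bacteria and keeps them away from the epithelial surface, and REG3B acts on Gram-negative bacteria. Their genes are induced by bacteria through MyD88 and through interleukin (IL)-22, which signals by STAT3, in enterocytes and Paneth cells. Reg1 was first described in the exocrine pancreas and is also made in the small intestinal epithelium, Reg4 is known in enteroendocrine cells and in the deep secretory cells of colon crypts, and Retnlb is induced by IL-13 during worm infection.

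Of the 6 genes, 4 lie in a gene cluster of 98.0 kb on chromosome 6 (GRCm38, 78370885 to 78468874) that also holds Reg3d and Reg2. In the order of the chromosome, Reg3b spans 78370885 to 78373466, Reg3a 78380709 to 78383839, Reg1 78425983 to 78428668 and Reg3g, on the opposite strand, 78466269 to 78468874. Reg4 lies apart on chromosome 3 (98222138 to 98236748) and Retnlb on chromosome 16 (48816856 to 48818892). The promoters of the cluster members with the highest levels, Reg3b, Reg3g and Reg1, and of Reg4, the higher of the members outside the cluster, are shown so that the neighbouring genes can be compared. Each is the 130 bases before a transcription start in RefSeq (GRCm38.p6), 5′ to 3′ on the strand of the gene, and the start used for Reg4 lies just inside the span given for the gene. Capitals mark matches to the STAT motif TTCNNNGAA and to the TATA box letters TATAAA.
Reg3b, chr6:78370755-78370884, plus strand: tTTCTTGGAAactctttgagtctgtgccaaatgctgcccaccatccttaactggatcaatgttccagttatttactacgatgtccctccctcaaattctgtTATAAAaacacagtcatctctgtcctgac
Reg3g, chr6:78468875-78469004, minus strand: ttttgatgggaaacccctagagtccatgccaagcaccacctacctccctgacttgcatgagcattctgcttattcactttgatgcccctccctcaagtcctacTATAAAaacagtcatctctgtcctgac
Reg1, chr6:78425853-78425982, plus strand: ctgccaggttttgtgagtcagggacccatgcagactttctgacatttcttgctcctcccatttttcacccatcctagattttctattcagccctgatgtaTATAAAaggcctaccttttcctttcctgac
Reg4, chr3:98222026-98222155, plus strand: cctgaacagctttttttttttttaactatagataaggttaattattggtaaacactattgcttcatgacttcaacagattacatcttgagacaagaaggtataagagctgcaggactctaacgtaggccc

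The stretches of Reg3b and Reg3g were identical at 73.4% of aligned bases, whereas Reg1 matched Reg3b at 56.5% and Reg4 matched Reg3b at 54.2%. The TATA letters began 29 bases before the start in Reg3b, 27 in Reg3g and 30 in Reg1, and were read on the strand of the gene. They occurred in 7.59% of the 32851 RefSeq promoter windows of 250 bases. The STAT motif, searched on both strands over 250 bases, was found in Reg3b, 129 bases before the start, and not in the windows of Reg1, Reg3a, Reg3g or Reg4. It occurred in 7.02% of all windows. The E-box CAGNTG, the kind of site that factors such as ATOH1 read, was found in Reg1, Reg3a, Reg3b and Reg4 and in 44.8% of all windows. These matches describe letters and were not tested for binding. The transcripts of Reg3b and Reg3g were identical at 75.0% of aligned bases with a longest identical run of 35 bases, and for no other pair of Reg genes was such a run longer than 24 bases. Reads shorter than such runs could have been divided between the genes in the quantification.

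Cbfa2t3 had a TPM of 3.67 to 6.69 in WT and of 3.23 to 6.43 in the libraries labelled Mtg16-/-, so its gene-level value did not separate the genotypes and every direction below rests on the labels. The depth of the libraries is unknown, because TPM keeps no read number. Across genes, WT replicate 1 and Mtg16-/- replicate 3 lay at the ends of the first principal component, which held 47.7% of the variance. Crypt base stem cell markers were present in every library, with summed TPM of 8 genes between 917 and 2261. Colon markers were low for crypts labelled as from the whole gut, since 6 of them summed to 24.4 to 42.8 TPM and Hoxb13 was listed at 0 throughout. The summed TPM of 11 stromal and endothelial markers stayed between 3.92 and 8.74, that of 10 leukocyte markers between 95.9 and 475, and that of 16 exocrine pancreas markers between 15.5 and 51.9.

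The 6 genes covered a wide range of levels. In WT crypts Reg3b held the 4th highest and Reg3g the 9th highest mean TPM among the 12268 tested genes, and together they took between 0.593% and 1.46% of all TPM in the 6 libraries. TPM is scaled by transcript length, so levels can be compared between genes. Reg3b exceeded Reg3g in each of the 3 WT and each of the 3 Mtg16-/- mice, although the ranges of both genes overlapped. Reg1 came next, clear of Reg3g in both genotypes. In WT mice Reg1 lay above Reg3a without overlap, while Reg3a and Reg4 could not be ordered. In Mtg16-/- mice Reg1 lay above Reg4 in each library but the ranges overlapped, and Reg4 and Reg3a again could not be ordered. Retnlb lay far below the others in both genotypes.

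The comparison of the genotypes asks how loss of MTG16 shifts crypt gene expression. Reg1 was lower and Reg4 higher in the libraries labelled Mtg16-/- with no overlap between the groups, Reg3b and Reg3g had lower means with overlapping groups, and Reg3a and Retnlb did not separate. In limma's test across all genes, with equal library weights and no covariates, none of the 6 was called at an adjusted p under 0.1. In that fit 4 of the 12268 tested genes (0.0326%) were called, 0.0163% as higher and 0.0163% as lower. At an unadjusted p under 0.05, 2 of the 6 passed, beside 14.6% of all tested genes. They were Reg1, lower as were 8.05% of all tested genes, and Reg4, higher as were 6.53%. Groups without overlap were found for 2 of the 6, beside 21% of all tested genes. In crypts sequenced in bulk, fewer cells that express a gene and less RNA per cell cannot be told apart.

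**Figure D1:**
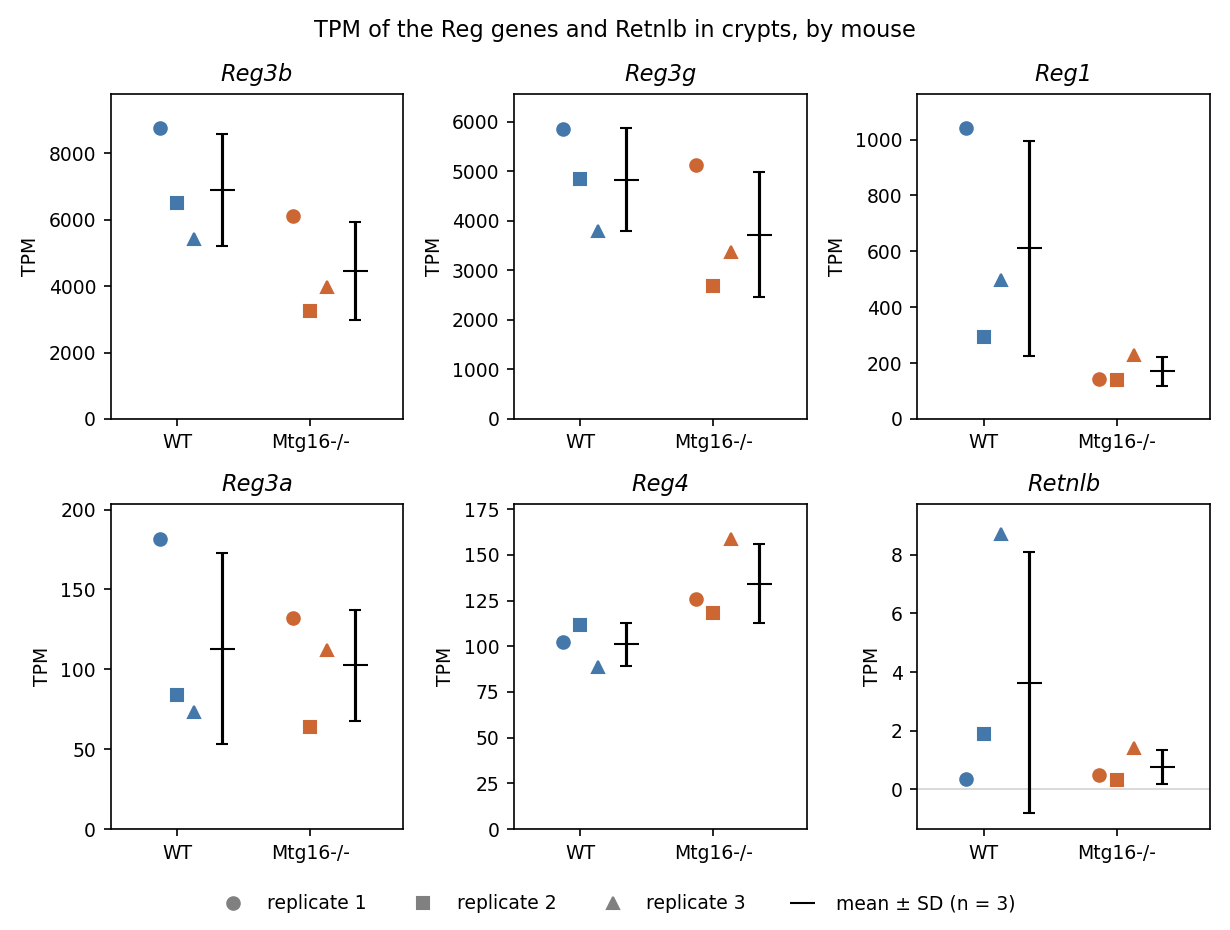
TPM of the 6 genes (y axis, linear, a separate scale for each gene) in WT and Mtg16-/- crypts, with 1 point per mouse, the shape giving the replicate number and the bar the mean and SD of 3 mice. The Mtg16-/- points of Reg1 lie below those of WT, the Mtg16-/- points of Reg4 lie above them, and the other 4 genes overlap.

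Reg1 encodes a secreted lectin that was first found in pancreatic stones and regenerating islets. Reg1 TPM values were 1040.25, 295 and 496 in the WT mice and 142, 138 and 230.4 in the Mtg16-/- mice. Every Mtg16-/- value was below every WT value, and WT replicate 1 stood well above the other 2 WT mice. The mean was 610 ± 386 TPM in WT and 170 ± 52.2 TPM in Mtg16-/- crypts (SD, n = 3 each), and the ratio of the WT mean to the Mtg16-/- mean was 3.58. On the log2(TPM + 1) scale the fold change was -1.68, with a standard error of 0.43 and a 95% interval from -2.67 to -0.70. Limma's adjusted p was 0.247, and the two-sided exact permutation test gave p = 0.1, the smallest that 3 mice against 3 allow. Reg1 was the single member lower without overlap, beside 11.1% of all tested genes. Without WT replicate 1 the log2 fold change was -1.20 (limma adjusted p = 0.284). With array weights, which give each library a weight by its fit, Reg1 was called at -1.61 (limma adjusted p = 0.0396). That setting called 855 of the 12268 tested genes.

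Markers of absorptive and proximal epithelium had lower summed levels in the Mtg16-/- group, as Reg1 had. None of these markers was called in limma's test (lowest adjusted p = 0.219). The summed TPM of 18 enterocyte markers was 47410.0, 16610.0 and 20570.0 in the WT mice and 16290.0, 9221 and 8357 in the Mtg16-/- mice, so that WT replicate 1 held the highest sum of both groups. All 18 had a negative log2 fold change, with a median of -1.21 and 9 without overlap. The 8 markers of the proximal small intestine, which share Lct and Fabp1 with the enterocyte list, had a median of -0.80, with 5 lower without overlap. Among them were Pdx1, a transcription factor of the duodenum (log2 fold change -1.36), and Gata4, a factor of the jejunum and duodenum (-0.42). Fabp1 and Lct held most of the summed TPM of the proximal list in every library. The 5 markers of the ileum had a median of -0.24, with 2 positive, 3 negative and none without overlap. The median over all tested genes was -0.03, and 11.1% of all tested genes were lower without overlap. Among the WT mice, Reg1 and the enterocyte sum ranked in the same order. Within the Mtg16-/- group, replicate 3 had the highest Reg1 (230.4 TPM) and the lowest enterocyte sum (8357 TPM). What part enterocytes or proximal regions had in the Reg1 difference was not tested. The exocrine pancreas markers were low beside Reg1, with no value above 10.5 TPM. Their sum was highest in WT replicate 1, where Reg1 was also highest, at 51.9 TPM against 15.5 to 25.3 in the other libraries. Reg2, a Reg gene of the pancreas, was listed at 0 in 5 of the 6 libraries. A part of pancreatic RNA in the Reg1 values was not tested.

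**Figure D2:**
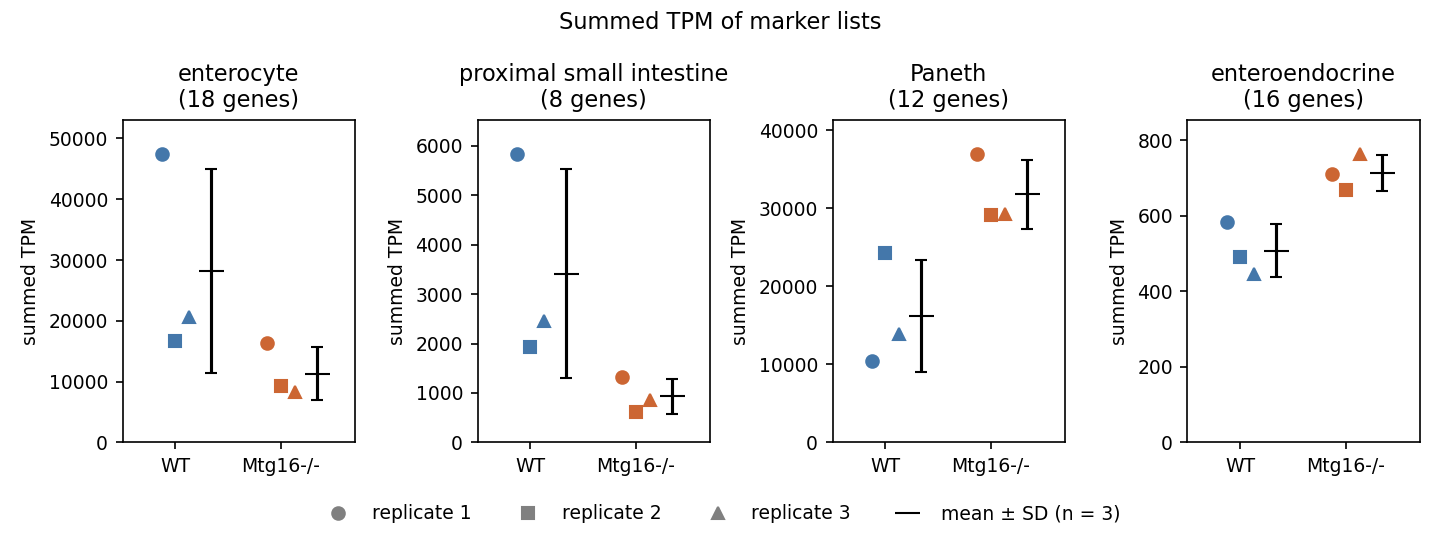
Summed TPM (y axis, linear from 0) of marker lists for enterocytes, the proximal small intestine, Paneth cells and enteroendocrine cells in each mouse, with 1 point per mouse and the mean and SD of 3 mice. The Mtg16-/- sums lie below the WT sums for enterocytes and the proximal small intestine and above them for Paneth and enteroendocrine cells.

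Reg4 encodes the Reg lectin whose gene lies farthest from the others, on its own chromosome. Reg4 TPM values were 103, 112 and 88.7 in the WT mice and 126, 118 and 159 in the Mtg16-/- mice. The lowest Mtg16-/- value lay just above the highest WT value. The mean was 101 ± 11.7 TPM in WT and 134 ± 21.7 TPM in Mtg16-/- crypts (SD, n = 3 each), a ratio of 1.33. The log2 fold change was 0.40 with a standard error of 0.15 and a 95% interval from 0.04 to 0.76 (limma adjusted p = 0.312, and p = 0.1 in the two-sided exact permutation test). Reg4 was the single member higher without overlap, beside 9.94% of all tested genes.

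Enteroendocrine, Paneth and crypt base stem markers had higher summed levels in the Mtg16-/- group, as Reg4 had, and goblet markers did not. The summed TPM of 16 enteroendocrine markers was 583, 492 and 445 in the WT mice and 711, 666 and 762 in the Mtg16-/- mice. All 16 had a positive log2 fold change, with a median of 0.64 and 12 higher without overlap. Tac1, the substance P precursor of enterochromaffin cells, had a log2 fold change of 0.94, and Tph1, which makes serotonin in the same cells, had one of 0.47 with overlapping groups. The 12 Paneth markers had a median of 0.94, with 6 higher without overlap. Their sum was highest in Mtg16-/- replicate 1 (36960 TPM), whereas Reg4 was highest in Mtg16-/- replicate 3. The 8 crypt base stem markers were all positive, with a median of 0.62 and 5 higher without overlap. The 16 goblet markers had a median of -0.07, with 9 negative and 2, Clca1 at -0.89 and Zg16 at -1.28, lower without overlap. Over all tested genes 9.94% were higher and 11.1% lower without overlap. No marker of these lists was called in limma's test, where the lowest adjusted p was 0.104. The part of any of these cell types in the Reg4 difference was not tested.

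Reg3b and Reg3g, the antibacterial pair, varied together from mouse to mouse. Reg3b TPM values were 8751, 6513 and 5426 in the WT mice and 6099, 3254 and 3979 in the Mtg16-/- mice. Reg3g TPM values were 5855, 4847 and 3785 in the WT mice and 5115, 2679.88 and 3359 in the Mtg16-/- mice. In both genes the replicates of each group ranked in the same order, and Mtg16-/- replicate 1 lay above WT replicate 3. The log2 fold change was -0.66 for Reg3b, with a standard error of 0.31 and an interval from -1.37 to 0.06 (limma adjusted p = 0.372). It was -0.41 for Reg3g, with a standard error of 0.30 and an interval from -1.10 to 0.28 (limma adjusted p = 0.532). The exact permutation test, two-sided, gave p = 0.2 for Reg3b and p = 0.3 for Reg3g. Neither gene was called, and in both the groups overlapped. The Reg3g value moved to -0.20 without Mtg16-/- replicate 2, to -0.26 without WT replicate 1, to -0.66 without Mtg16-/- replicate 1 and to -0.72 after quantile normalization, and was not called in any of these.

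**Figure D3:**
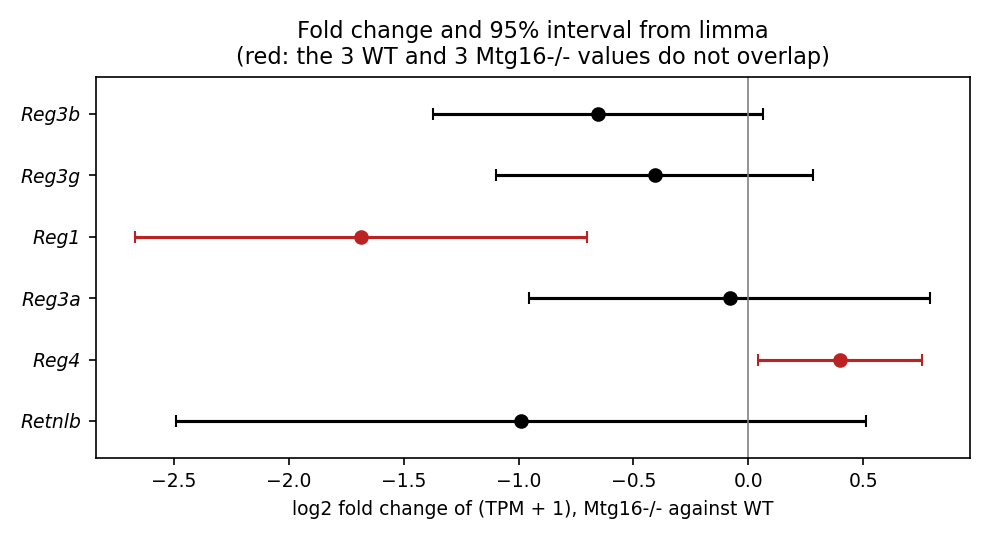
Log2 fold change of TPM + 1 in Mtg16-/- against WT crypts (x axis) for each of the 6 genes (y axis), with 95% intervals from limma's fit across all genes, in red where the groups do not overlap. The intervals of Reg1 and Reg4 leave out 0, on opposite sides, and those of the other 4 genes include it.

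The proportion between the antibacterial lectins varied less between mice of a genotype than their levels. The ratio of Reg3b to Reg3g TPM within a library, which no scaling of the library can alter, was 1.49, 1.34 and 1.43 in the WT mice and 1.19, 1.21 and 1.18 in the Mtg16-/- mice. The groups did not overlap, and the log2 ratio differed by -0.25 in Mtg16-/- crypts (two-sided exact permutation test, p = 0.1, or 0.2 after Benjamini-Hochberg adjustment over the 10 ratios among the 5 genes above 10 TPM). The log2 ratio of Reg1 to Reg4 differed by -2.09, without overlap, which the separate levels of both genes already fixed, so it is given as a description. That of Reg1 to Reg3a differed by -1.61, without overlap (exact permutation test, p = 0.1, adjusted p = 0.2). The log2 ratios of Reg3b and of Reg3g to Reg4 differed by -1.06 and -0.81, also without overlap (exact permutation test, p = 0.1, adjusted p = 0.2). Ratios of Reg3a to Reg3b, Reg3g and Reg4 overlapped between the groups. Reg1 against Reg3b differed by -1.03 and against Reg3g by -1.28 with overlapping groups (exact permutation test, p = 0.2, adjusted p = 0.25), so a larger difference in Reg1 than in the antibacterial pair was not shown. These ratios were computed after the levels had been seen.

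**Figure D4:**
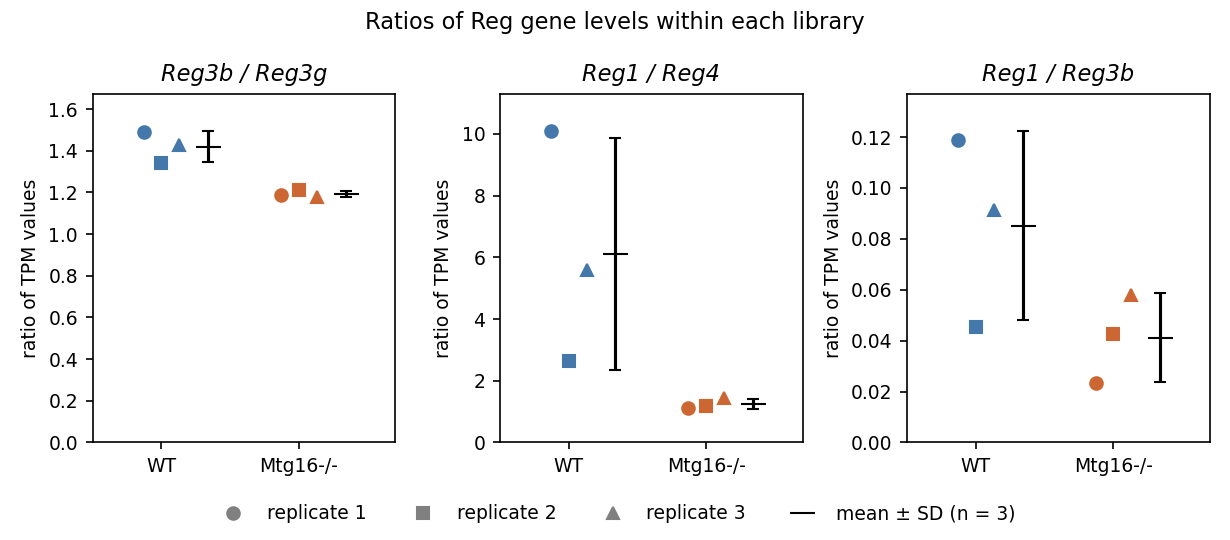
Ratio of TPM values within each library (y axis, linear from 0) for Reg3b over Reg3g, Reg1 over Reg4 and Reg1 over Reg3b, with 1 point per mouse and the mean and SD of 3 mice. The first and second ratios separate the genotypes, at 1.34 to 1.49 against 1.18 to 1.21 for Reg3b over Reg3g, whereas the third overlaps.

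Reg3a encodes another lectin of the REG3 group. Its TPM values were 182, 84.0 and 73.3 in the WT mice and 132, 64 and 112 in the Mtg16-/- mice. The values were interleaved. The log2 fold change was -0.08 with a standard error of 0.38 and an interval from -0.95 to 0.79 (limma adjusted p = 0.934), wide enough to hold a change of almost 1 log2 unit either way. Its sign turned without WT replicate 1 (0.32) and without Mtg16-/- replicate 2 (0.22).

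The Retnlb TPM values were 0.34, 1.88 and 8.7 in the WT mice and 0.49, 0.33 and 1.41 in the Mtg16-/- mice. The WT mice differed by 25.6-fold from lowest to highest, and WT replicate 3 alone stood out. The log2 fold change of -0.99 had a standard error of 0.65 and an interval from -2.49 to 0.51 (limma adjusted p = 0.491), and without WT replicate 3 it was -0.22. Without WT replicate 1 it was -1.65. With array weights it was -2.07 and was called (limma adjusted p = 0.0878), in a setting that called 855 of the 12268 tested genes. Because Retnlb passed the filter through its WT values, above all WT replicate 3, this call is not read as support for a lower level. The summed TPM of 16 goblet markers was lowest among the WT mice in replicate 3, at 7544 against 12090.0 and 10360.0. WT replicate 3 held the highest values of Gsdmc2, Gsdmc3 and Gsdmc4, gasdermin C genes that respond to IL-4 and IL-13, at 122, 38.6 and 200.31 TPM. The other 5 libraries stayed between 34.8 and 71.1, between 11.8 and 26.7 and between 58.5 and 112. The other tested genes of the IL-4 and IL-13 list, Il4ra, Il13ra1 and Stat6, were highest in WT replicate 1. The summed TPM of 9 tuft cell markers was 135 in WT replicate 3, above that of the other libraries (53.7 to 81.3). Il4 and Il13 were listed at 0 in all 6 libraries, and any link to Retnlb was not tested.

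The members differed in how much mice of the same genotype varied. The pooled SD within genotypes on the log2 scale was 1.07 for Retnlb, 0.71 for Reg1, 0.63 for Reg3a, 0.41 for Reg3b, 0.40 for Reg3g and 0.20 for Reg4, where the median over all tested genes was 0.21 and the 95th percentile 0.59. Retnlb, Reg1 and Reg3a were thus among the genes that varied most, and Reg4 was close to the median. In Reg1 this spread lay mostly among the WT mice, with an SD of 0.91 against 0.41 in Mtg16-/- mice.

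The gene with the profile nearest to each member over the 6 libraries was found from the root mean square difference of log2 values centred on their mean. Reg3b was nearest to Dusp5, a phosphatase that inactivates ERK (0.045 log2 units), followed by Gmfg and Ddah2. Reg3g was nearest to Ddah2 (0.089), followed by Gmfg and Cdkn2b, a cell cycle inhibitor. Reg3b and Reg3g were each among the 9 nearest genes of the other, at 0.133. Reg1 was nearest to Sult6b2 (0.286), followed by Otop3 and Cdr2, and its nearest other member, Reg3b, was at 0.764. Reg3a was nearest to Aldh1a7 (0.144), an aldehyde dehydrogenase, followed by Depdc7 and AI427809. Reg4 was nearest to Amigo2 (0.072), followed by Rpf1 and Lyrm2, and Retnlb to Mir6418 (0.456), followed by Kiss1 and Hspa1a. These distances are a description over 6 libraries and 12268 candidate genes.

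The other genes of both families were near or at 0 TPM. Reg3d, between Reg3b and Reg3a on the chromosome, lay between 0.3 and 2.12 TPM, with a log2 fold change of 0.49 and a standard error of 0.39. Reg2 had 0.25 TPM in 1 library and was listed at 0 in the others. Retn was listed at 0 throughout, and neither Retnla nor Retnlg exceeded 0.45 TPM. Extl3, described as a receptor for REG proteins, was steady at 12.1 to 15.8 TPM, with a log2 fold change of -0.02 (standard error 0.15).

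The genes upstream of the REG3 lectins were compared from lists made from general knowledge, and none of their members was called. Of 11 inducing cytokines, Il22, Il6, Il13 and Il4 were listed at 0 in each library. Il18, an epithelial cytokine, stood at 119, 43.8 and 50.2 TPM in the WT mice and at 33.1, 19.7 and 29.8 TPM in the Mtg16-/- mice, without overlap (log2 fold change -1.22 ± 0.37 SE, adjusted p = 0.267 in limma). Il33, an alarmin, had a log2 fold change of -0.79 with overlapping groups. Of 10 tested genes for the IL-22 and IL-6 receptors, JAK kinases and STAT3, 9 had a negative log2 fold change and 1, Il6st, the shared receptor gp130, was lower without overlap. Over all tested genes 53.6% had a negative log2 fold change and 11.1% were lower without overlap. The median of this list was -0.27, against -0.03 over all genes. Its ends were Il22ra1, the epithelial IL-22 receptor, at -0.61 (limma adjusted p = 0.429) and Il6ra at 0.43 (limma adjusted p = 0.435), and Stat3 itself was at -0.27.

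The 9 tested epithelial response genes of IL-22 and STAT3 had a median log2 fold change of -0.27, with 8 negative, beside 53.6% of all tested genes. Over all tested genes 11.1% were lower without overlap. Bcl3, a regulator of NF-kB, was the 1 gene of this list lower without overlap, at -0.55 ± 0.13 SE on the log2 scale (adjusted p = 0.233 in limma). Saa1, serum amyloid A, had the lowest value of the list at -1.63. Saa1 TPM values were 30.1, 41.3 and 25.4 in the WT mice and 36.7, 6.21 and 3.3 in the Mtg16-/- mice, so Mtg16-/- replicate 1 lay within the WT range, as it did for Reg3b and Reg3g. Socs3, the feedback inhibitor of STAT3, had the highest value at 0.45 with overlapping groups. Of 13 tested genes of microbe sensing, 6 were positive and 7 negative with a median of -0.05, from Irak2, a kinase below MyD88, at -0.56 to Tlr2 at 0.29. Myd88 stayed between 28.1 and 35.0 TPM with a log2 fold change of -0.05. The 6 tested IL-4 and IL-13 genes ranged from Il4ra at -0.41 to Gsdmc3 at 0.29.

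Other secreted antibacterial proteins, in a list that left out the defensins, did not follow one direction. Of 15 tested genes, 4 were higher and 3 lower without overlap in the libraries labelled Mtg16-/-, and the median log2 fold change was 0.04. Over all tested genes 9.94% were higher and 11.1% lower without overlap, and of the 3 lower genes 2 carry the same values. Of the 4 higher genes, Lyz1, Itln1 and Ang4 also stood on the Paneth list. The defensin genes of the Paneth list, Defa3, Defa5, Defa17, Defa22 and Defa24, all had positive log2 fold changes, from 0.82 to 1.51. None of these defensin genes was called, and Defa3 and Defa22 had overlapping groups. Lyz1, the Paneth cell lysozyme, had a log2 fold change of 0.92, Itln1, a lectin that binds microbial sugars, 0.96, Ang4, a bactericidal ribonuclease, 1.07, and Mptx1, a pentraxin, 1.88. Those lower were Zg16, a goblet cell lectin that binds Gram-positive bacteria, at -1.28, and Sprr2a1 and Sprr2a2, listed with identical values at -1.55, which cannot be told apart. The 7 adjusted p-values from limma ran from 0.225 to 0.297. Reg3b and Reg3g thus lay between these groups, at -0.66 and -0.41 with overlap, and the difference between lists was not tested.

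**Figure D5:**
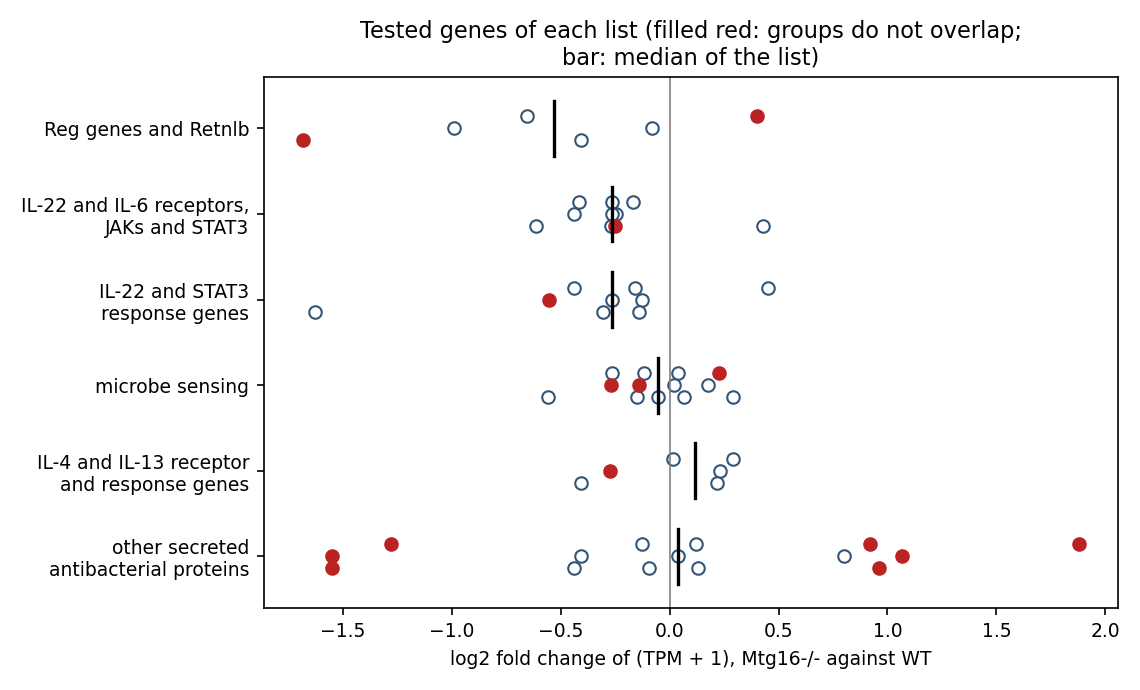
Log2 fold change of TPM + 1 in Mtg16-/- against WT crypts (x axis) for each tested gene of 6 lists (y axis), filled red where the groups do not overlap, with a bar at the median of the list. The antibacterial proteins other than Reg genes and defensins run from -1.55 to 1.88 around a median of 0.04. Of IL-22 and IL-6 signaling, 9 of 10 genes lie below 0, as do 53.6% of all tested genes.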

How the data were processed

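The authors deposited TPM values from RSEM per gene symbol with 2 decimals, each library summing to about 1000000. Libraries were made from 200 ng of RNA with ribosomal RNA depletion and 14 PCR cycles. The submitters' processing notes name cutadapt 1.9.1, STAR 2.5.2a, RSEM 1.3.0, DESeq2 1.12.3 and mm10. DESeq2 needs counts and was not run here.

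Values were transformed as log2(TPM + 1), which understates fold changes of low genes. Genes at a mean TPM of 1 or more, 12268 of 24736, were tested with limma 3.58.1 in R 4.3.3 (intensity trend, no covariates) and adjusted by Benjamini-Hochberg, and genes were called under 0.1. Single genes and ratios were also compared by two-sided exact permutation tests. The code was tested on simulated libraries. Positions and promoters are from RefSeq GRCm38.p6, in which 5 of the 6 genes had a promoter, and transcripts from GENCODE.

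The 6 genes and the lists were chosen with earlier results of these data known. Named besides them are family members, Extl3, the highest and lowest fold change of each list, and the 3 nearest profiles, and other names were chosen after their values were seen. Alternatives were another pseudocount, filters, scalings, moderation, array weights, a replicate block, a stricter threshold and each mouse left out.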

Additional observations from a re-analysis of the deposited data

How the results depend on the processing

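Reg1, Reg3b, Reg3g, Reg4 and Retnlb kept their direction under every alternative, and Reg3a did not. Its log2 fold change was 0.0143 after quantile normalization, 0.06 (0.055) with array weights, 0.32 without WT replicate 1 and 0.22 without Mtg16-/- replicate 2. When single mice were left out, the log2 fold change ranged from -2.11 to -1.20 for Reg1, from -0.33 to 0.32 for Reg3a, from -0.91 to -0.46 for Reg3b, from -0.66 to -0.20 for Reg3g, from 0.27 to 0.49 for Reg4 and from -1.65 to -0.22 for Retnlb, and none was called. Array weights called Reg1 (-1.61, adjusted p = 0.0396) and Retnlb (-2.07, adjusted p = 0.0878). The Retnlb call is not read as support, since Retnlb passed the filter through its WT values. Quantile normalization moved Reg3g to -0.72 (adjusted p = 0.249). Retnlb was not tested at a mean TPM of at least 5.

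The number of called genes, 4, became 0 without the filter, 15 at a mean TPM of at least 5, 1 with median-ratio rescaling, 1 with quantile normalization, 0 with TPM rescaled without the Defa genes or without the 20 most abundant genes, 0 without the intensity trend, 20 with robust moderation, 855 with array weights, 0 at an adjusted p under 0.05 and from 0 to 20 with single mice left out (20 without WT replicate 1, 0, 1 and 2 without Mtg16-/- replicates 3, 1 and 2). By comparison, 1789 genes had an unadjusted p under 0.05. The cause of these changes in the number of called genes was not tested. The groups share replicate numbers, but the deviations of same-numbered mice correlated with r = 0.429, 0.0753 and 0.237 across genes, not all above the limit of 0.1, and not every mouse correlated best with its own number, so the numbers were not taken as pairs. A replicate block called 1201 genes, Reg1 among them (-1.68, adjusted p = 0.0287) and none of the other 5.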
